A study of Triticum turgidum subsp. durum with 4 samples.

Results

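The comparison of TWH with TCG was a comparison of small RNA in seedlings of DBA Aurora, a durum wheat variety that tolerates water-deficit and heat stress, from stressed and from control parents. Of the 2111 different mature miRNA sequences of the series, the 1977 with reads in TCG or TWH were compared, each counted once. Both libraries were made from shoots of seedlings 12 days old that had grown without stress at 24 °C by day and 18 °C by night. In TCG the parents had been control plants. In TWH the parents had met water deficit from the booting stage and episodes of heat after flowering. The series holds 4 libraries, and SCG and SWH are the matching pair, from control and stressed parents, of the stress-sensitive breeding line L6 (UAD1301020-8). Each library was 1 pool of RNA from 8 seedlings, so no spread between seedlings or pools can be measured, and every test below compares a pair of libraries and not the seed groups.

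Plant miRNAs are short RNAs cut from a hairpin precursor, and they guide an ARGONAUTE protein to mRNAs with a matching sequence, which are then cleaved or less translated. Each hairpin has a 5p and a 3p arm, and usually 1 of them is loaded while the other, the passenger arm, is lost. Several plant families are known for responses to drought, heat or nutrient supply, among them miR156, miR169, miR398 and miR827.

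The sequences that carry the main differences are printed 5′ to 3′ with the seed, bases 2 to 8, in capitals. In the names, L and R mark bases added to or missing from the left and right end of the miRBase entry, ss marks a substitution, p5 or p3 an arm read off the hairpin, and PC a sequence with no miRBase match. The first pair are the arms of the miR168 hairpin, and the next are the miR169, miR156, miR398 and miR827 members that the results turn on.
osa-miR168a-5p: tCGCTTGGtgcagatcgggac
osa-miR168a-3p_L-3: cCCGCCTTgcaccaagtgaat
ata-miR169a-3p: tGGGCAAGtcaccctggctacc
bdi-miR156b-5p: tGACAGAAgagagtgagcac
gma-miR156a_1ss20CT: tGACAGAAgagagtgagcat
gma-miR156a_L+1R+2: tTGACAGAagagagtgagcacca
zma-miR156l-3p: gCTCACTGctctatctgtcacc
mtr-miR398a-5p_1ss7AC: gGAGTGCCactgagaacacaag
osa-miR398a: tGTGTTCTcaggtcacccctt
osa-miR827: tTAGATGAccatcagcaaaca
bdi-miR156b-5p and gma-miR156a_1ss20CT share the seed GACAGAA and differ at their last base, while in gma-miR156a_L+1R+2 the added left base moves the seed by 1 position.

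The miRNA sequences took 994074 reads in TCG and 1096670 in TWH, which is 7.87% and 7.95% of the clean reads, and 1293324 in SCG and 855716 in SWH. The normalised count is the read number times 1.035 in TCG and 0.9465 in TWH. Almost no value under 5 reads was recorded, so a recorded 0 was taken as 5 reads, a normalised count of 5.175 in TCG and 4.732 in TWH, and a fold against a 0 is a lower bound. The intervals given are 95% intervals for counting error only. A sequence was called up or down when 2 tests of its count against all other counts, chi-squared and Fisher's exact (two-sided), each gave p under 0.05 and the log2 fold change was past 1 in either direction.

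By this rule 134 of 1977 sequences were called in TWH vs TCG, which is 6.78%, with 59 up (2.98%) and 75 down (3.79%). Most of these had low counts, but all reached a count of 10, a level at which 1417 sequences were tested and 9.46% were called, 4.16% up and 5.29% down. Among the 338 sequences that reached a normalised count of 100 in either library, 11 were called (3.25%), 2 up (0.592%) and 9 down (2.66%). The median log2 fold change was -0.04 over all sequences and its median size was 0.37, against 0.23 at counts of at least 100. Without the fold criterion 377 of all sequences passed both tests (19.1%), 160 up (8.09%) and 217 down (11%), and of the 338 abundant ones 191 did (56.5%), 70 up (20.7%) and 121 down (35.8%), so at this depth most of the abundant miRNAs differed between the libraries by more than counting error and few by more than 2-fold. Of the 11 abundant calls, osa-miR168a-3p_L-3 alone passed an adjusted p of 0.05 in the edgeR exact test with a common dispersion (adjusted p = 0.00372), and the other 10 had adjusted p from 0.124 to 0.300. Some sequences share reads: 225 of the 1417 with a count of at least 10 had the same read numbers in all 4 libraries as another sequence, and the 134 called sequences held 112 different sets of read numbers, 55 up and 57 down.

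**Figure D1:**
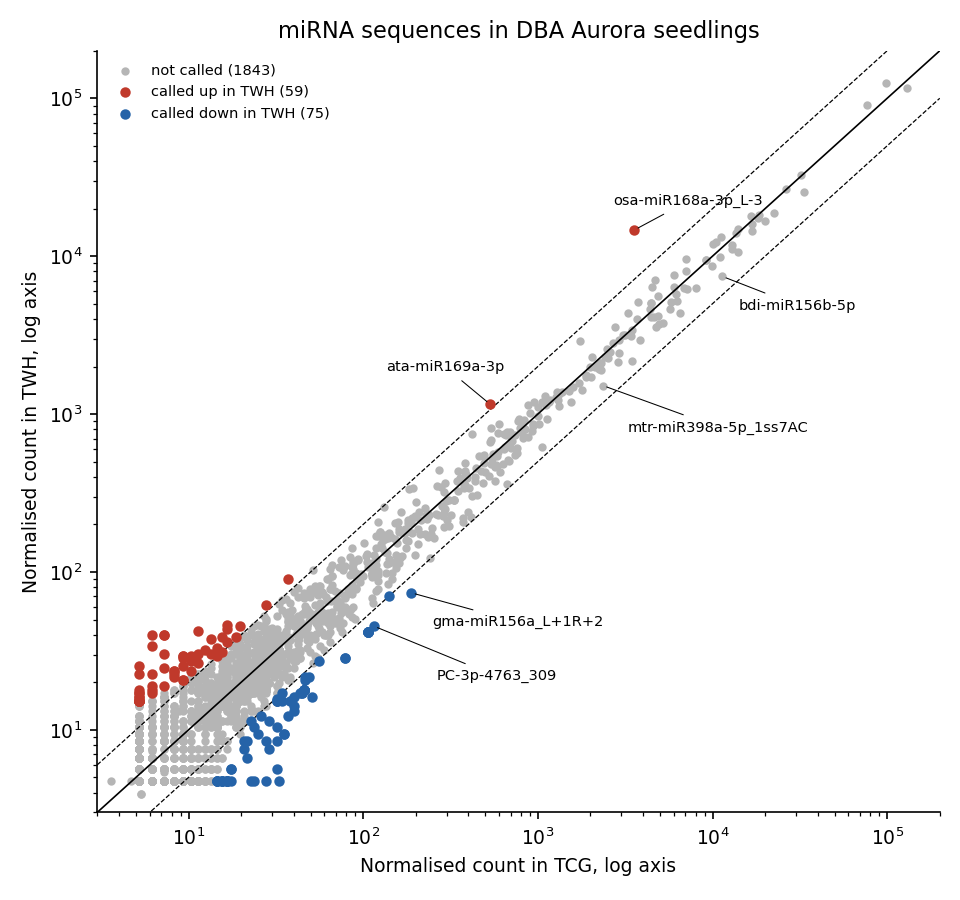
Normalised counts of 1977 miRNA sequences in TCG (x axis) and TWH (y axis), both on log axes, with a recorded 0 drawn at 5 reads, the line of equal counts solid and the lines of 2-fold difference dashed. The 59 red points were called up and the 75 blue points called down, and at counts of at least 100 only 2 are red and 9 blue, of which 6 lie on the same spot.

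miR168, which guides cleavage of the mRNA of ARGONAUTE1, the protein that most miRNAs load into, gave the called increase with the highest count. The 3p arm, osa-miR168a-3p_L-3, had a normalised count of 3571 in TCG, 14660 in TWH, 8570 in SCG and 11431 in SWH. TCG was lowest and TWH highest of the 4 libraries. Of the 59 sequences called up, 52 had TCG lowest, beside 25.7% of all sequences with a count of at least 10. A call up requires TCG below TWH, so the count of 52 is largely set by the rule. For osa-miR168a-3p_L-3 the log2 fold change was 2.04 (1.98 to 2.09), or 4.11-fold higher in TWH, against 0.42 in L6. The 5p arm, osa-miR168a-5p, which is the arm known to act on ARGONAUTE1, had 13670 in TCG, 14016 in TWH, 11231 in SCG and 10955 in SWH, a log2 fold change of 0.04 (0.00 to 0.07). The rise therefore lay in the passenger arm. Of the reads of both arms, the 5p arm took 79.3% in TCG and 48.9% in TWH, and the log2 ratio of 5p to 3p changed by -2.00 (-2.06 to -1.94). The deposited hairpin lies at chr6B:99797645-99797755 on the minus strand of Svevo.v1, outside any gene of the annotation used. Of the list of small RNA pathway regulators 1 of 2 members was called, and miR162 and miR403 are not analysed here.

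miR169 guides cleavage of mRNAs for NF-YA subunits of CCAAT-binding transcription factors. The other called increase at counts of at least 100 was a 3p sequence of this family. ata-miR169a-3p had a count of 533 in TCG, 1154 in TWH, 1494 in SCG and 1206 in SWH. TCG was lowest, and TWH lay below both L6 libraries. The log2 fold change was 1.11 (0.97 to 1.26; two-sided Fisher's exact test p = 1.56e-51) in DBA Aurora and -0.31 in L6. That p covers counting error only, and with an edgeR exact test that allows a common dispersion the call was lost after adjustment (Benjamini-Hochberg adjusted p = 0.152). The other arm, ata-miR169a-5p, had 90.9 in TCG and 98.4 in TWH (0.11), so the rise lay in the 3p arm. Over the list, 4 of 47 members were called up and 0 down, where 2.98% of all sequences were called up, and the median was 0.16 beside -0.04 over all. The 3 other called members, zma-MIR169c-p5, zma-MIR169a-p5 and ppe-MIR169a-p3_1ss19AC, had at most 20.8 in either library. Among members with a count of at least 10, 22 of 32 had a positive log2 fold change in DBA Aurora and 6 in L6. The most abundant members went the other way: bdi-miR169c-3p_L+1_2ss6GA13CT had 22600 in TCG and 18713 in TWH (-0.27), and ata-miR169f-3p_R-1 had 4609 and 4103 (-0.17). Their weight put the summed count of the family at 35443 in TCG and 33093 in TWH. The sign of the family therefore depended on whether members or reads were counted. Both of these abundant members are 3p sequences, as is the called ata-miR169a-3p, so the sum follows mainly 3p reads. The 3 abundant sequences with the seed of ata-miR169e-5p, a 5p sequence, together had 1103 in TCG and 1497 in TWH (log2 ratio 0.44). All 3 had a positive log2 fold change. The family was not summed by arm, and action on NF-YA mRNAs was not tested.

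miR156 holds back the ageing of the shoot by guiding cleavage of mRNAs for SPL transcription factors, and miR172, which acts later, targets AP2-like factors. In this list 4 of 29 members were called down and 0 up, where 3.79% of all sequences were called down, and all 4 were miR156. gma-miR156a_L+1R+2 had 188 in TCG, 73.8 in TWH, 27.5 in SCG and 61.1 in SWH, a log2 fold change of -1.35 (-1.73 to -0.97; two-sided Fisher's exact test p = 5.48e-13). gma-miR156a_1ss20CT had 141 in TCG, 70.0 in TWH, 68.3 in SCG and 51.5 in SWH, a log2 fold change of -1.01 (-1.42 to -0.60). This call was lost with TMM factors (-0.96), with a pseudocount of 10 (-0.91) and in the edgeR exact test (unadjusted p = 0.0537), and that of gma-miR156a_L+1R+2 in the edgeR exact test after adjustment (adjusted p = 0.124). TCG stood above the other 3 libraries for both, as it did for 66 of the 75 sequences called down. A call down requires TCG above TWH, so the count of 66 is largely set by the rule. Over all sequences with a count of at least 10, TCG was highest for 35.7%. The remaining called members, ptc-MIR156h-p5_2ss14AC18AG and bdi-miR156a_R-1_1ss9GT, had at most 32.1. The main mature form, bdi-miR156b-5p, was not called: it had 11362 in TCG, 7451 in TWH, 6173 in SCG and 6328 in SWH, a log2 fold change of -0.61 (-0.65 to -0.57). The passenger arm zma-miR156l-3p had 2759 in TCG and 3552 in TWH, a log2 fold change of 0.36, so the 5p share of these 2 sequences was 80.5% in TCG and 67.7% in TWH. For miR172, ata-miR172b-3p had 3444 in TCG and 2166 in TWH and ata-miR172b-5p had 157 and 206, and none of the 9 members was called. The list's median was -0.13, the value that equal read numbers give after normalisation, and -0.06 at counts of at least 10. At that level 12 of 24 members were positive.

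miR398 guides cleavage of mRNAs for Cu/Zn superoxide dismutases and belongs to the copper-linked miRNAs, with miR397 (laccases), miR408 and miR528. None of the 14 members was called. mtr-miR398a-5p_1ss7AC had 2354 in TCG, 1516 in TWH, 917 in SCG and 471 in SWH, log2 fold changes of -0.63 in DBA Aurora and -0.96 in L6. osa-miR398a, chosen after its values were seen, had 374 in TCG, 207 in TWH, 118 in SCG and 26.4 in SWH. In both genotypes these counts were lower in the library from stressed parents, and both DBA Aurora libraries lay above both L6 libraries. The summed count of the family was 3692 in TCG and 2357 in TWH, a log2 ratio of -0.65 (-0.72 to -0.57). Of this sum, mtr-miR398a-5p_1ss7AC, a 5p sequence, held 2354 in TCG and 1516 in TWH, so the sum follows mainly 5p reads. At counts of at least 10, 6 of 7 members were negative. The exception was the 3p sequence tae-miR398_L-1R+1, with 36.2 in TCG and 53.9 in TWH (0.57). The family was not summed by arm, so this does not show that its 3p members rose. Action on superoxide dismutase mRNAs was not tested. miR528 had a summed count of 144 in TCG and 233 in TWH, and tae-MIR397-p5 had 349 and 327. The median of the list was -0.20.

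**Figure D2:**
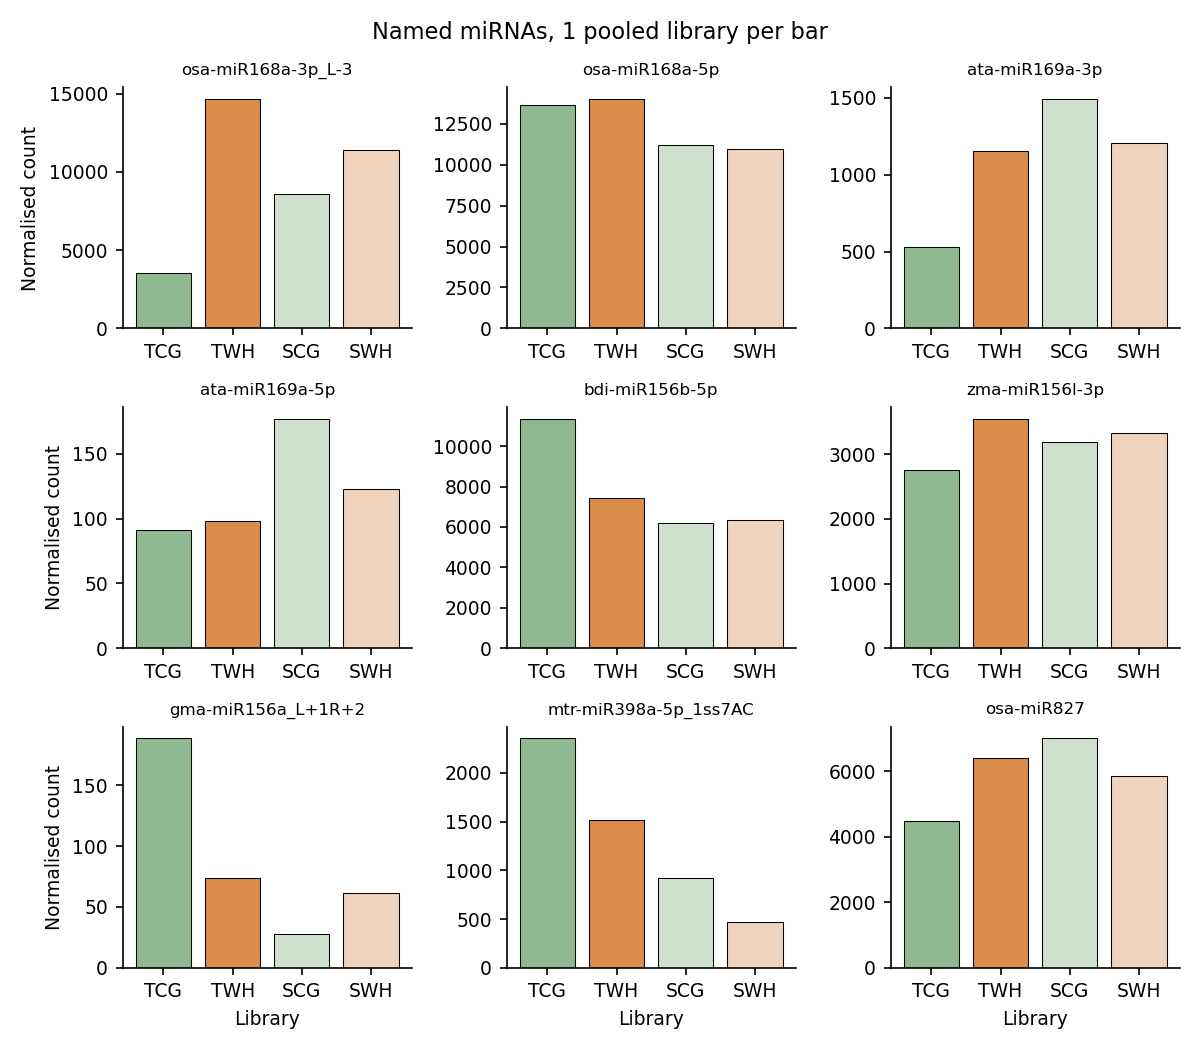
Normalised counts (y axis, from 0) of 9 miRNAs in TCG, TWH, SCG and SWH, 1 pooled library per bar and therefore without error bars. osa-miR168a-3p_L-3 goes from 3571 in TCG to 14660 in TWH while osa-miR168a-5p stays at 13670 and 14016, and bdi-miR156b-5p is highest in TCG at 11362.

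The phosphate and sulphate list holds miR827, which targets SPX-domain proteins, miR399, which targets the phosphate regulator PHO2, and miR395, which targets ATP sulphurylase. Of its 27 members 1 was called up and 0 down (3.70% beside 6.78% of all sequences), with a median of 0.16. osa-miR827 had 4478 in TCG, 6396 in TWH, 7005 in SCG and 5845 in SWH, log2 fold changes of 0.51 (0.46 to 0.57) in DBA Aurora and -0.26 in L6. TCG was the lowest library. bdi-miR399a_1ss16AG had 689 in TCG and 767 in TWH. The called member was ata-miR399b-5p_L-2R+2, the passenger arm of a miR399, with 27.9 in TCG and 61.5 in TWH.

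The auxin list holds miR160 and miR167 against auxin response factors, miR393 against auxin receptors, and miR390. It had 2 of 49 members called down and 0 up (4.08% beside 6.78% of all sequences), and a median of -0.07. The closely related pair of miR167 differed in direction: ata-miR167b-5p had 20089 in TCG and 16604 in TWH (-0.27), and tae-miR167c-5p, which has the same seed GAAGCTG, had 11205 and 13172 (0.23). The called members were osa-miR393a_L+1R+2, with 16.6 in TCG and a recorded 0 in TWH, and osa-miR167d-5p_L+1R+1, with 14.5 and 4.73.

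The list for growth and organ development joins miR396 (GRF growth regulators), miR159, miR319, miR164 (NAC factors), miR166 (HD-ZIP III factors), miR171 and miR394. Of 121 members 0 were called up and 2 down (1.65% beside 6.78% of all sequences), both below 22 in each library. The median was -0.07. osa-miR396e-5p, the most abundant sequence of TCG, had 129681 in TCG and 116565 in TWH (-0.15), and ata-miR396c-5p had 33486 and 25649 (-0.38). The miR396 family summed to 179113 in TCG and 157545 in TWH, with 21 of 28 members negative. bdi-miR394 had 32111 and 32601 (0.02). For miR164 the arms went apart: ata-miR164b-5p had 8066 in TCG and 6243 in TWH (-0.37), while tae-MIR164-p3 had 419 and 748 (0.83). All 5 sequences listed with the seed CGGACCA, 4 of them miR166, had a negative log2 fold change, and together they had 35171 in TCG and 28557 in TWH.

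In the list of miR444 and miR5200, which target MADS-box and FT-like genes in grasses, 0 of 23 members were called, and the median was -0.11. osa-miR444b.1 had 7045 in TCG, 9595 in TWH, 8412 in SCG and 12021 in SWH, log2 fold changes of 0.45 and 0.51. Both libraries from stressed parents lay above their controls for this sequence. Of the 19 miR444 members at counts of at least 10, 12 were negative and 7 positive in DBA Aurora, where 47.4% of all sequences at this level were positive. Some members share reads: the 20 miR444 sequences of the series held 15 different sets of read numbers. The 3 abundant sequences with the seed GCAGTTG, among them hvu-miR444b, together had 4943 in TCG and 3787 in TWH (log2 ratio -0.38). The family summed to 22222 in TCG and 24858 in TWH. Of miR9863 and other miRNAs that target NLR immune receptors, known for barley miR9863, 1 of 25 members was called up and 0 down. That is 4% beside 6.78% of all sequences, and the median was -0.01. ata-miR9863a-3p had 18440 in TCG and 18260 in TWH. The called variant, ata-miR9863a-3p_1ss6AC, was recorded at 0 in TCG and SCG and had 25.6 in TWH and 16.8 in SWH, so it was at least 4.94-fold higher in TWH than in TCG, and it was also called up in L6.

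Wheat miRNAs without well-known targets made up much of the counts. tae-miR7757-5p_1ss2TC had 98954 in TCG and 124237 in TWH (0.33), against 124711 in SCG and 113156 in SWH. tae-miR9674b-5p had 76633 in TCG and 90855 in TWH (0.25). Of the list of miR7757, miR9674, miR5048 and miR1432, 4 of 57 members were called up and 1 down, 8.77% beside 6.78% of all sequences. Its median was -0.06, so its most abundant members were above its median. The list miR9652 to miR9783 had 3 of 144 members up and 4 down (4.86% beside 6.78% of all sequences). Its median was -0.13, or -0.07 at counts of at least 10. There tae-MIR9670-p5 had 16627 in TCG and 18085 in TWH, and tae-miR9773_R+1 had 26483 and 26810.

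**Figure D3:**
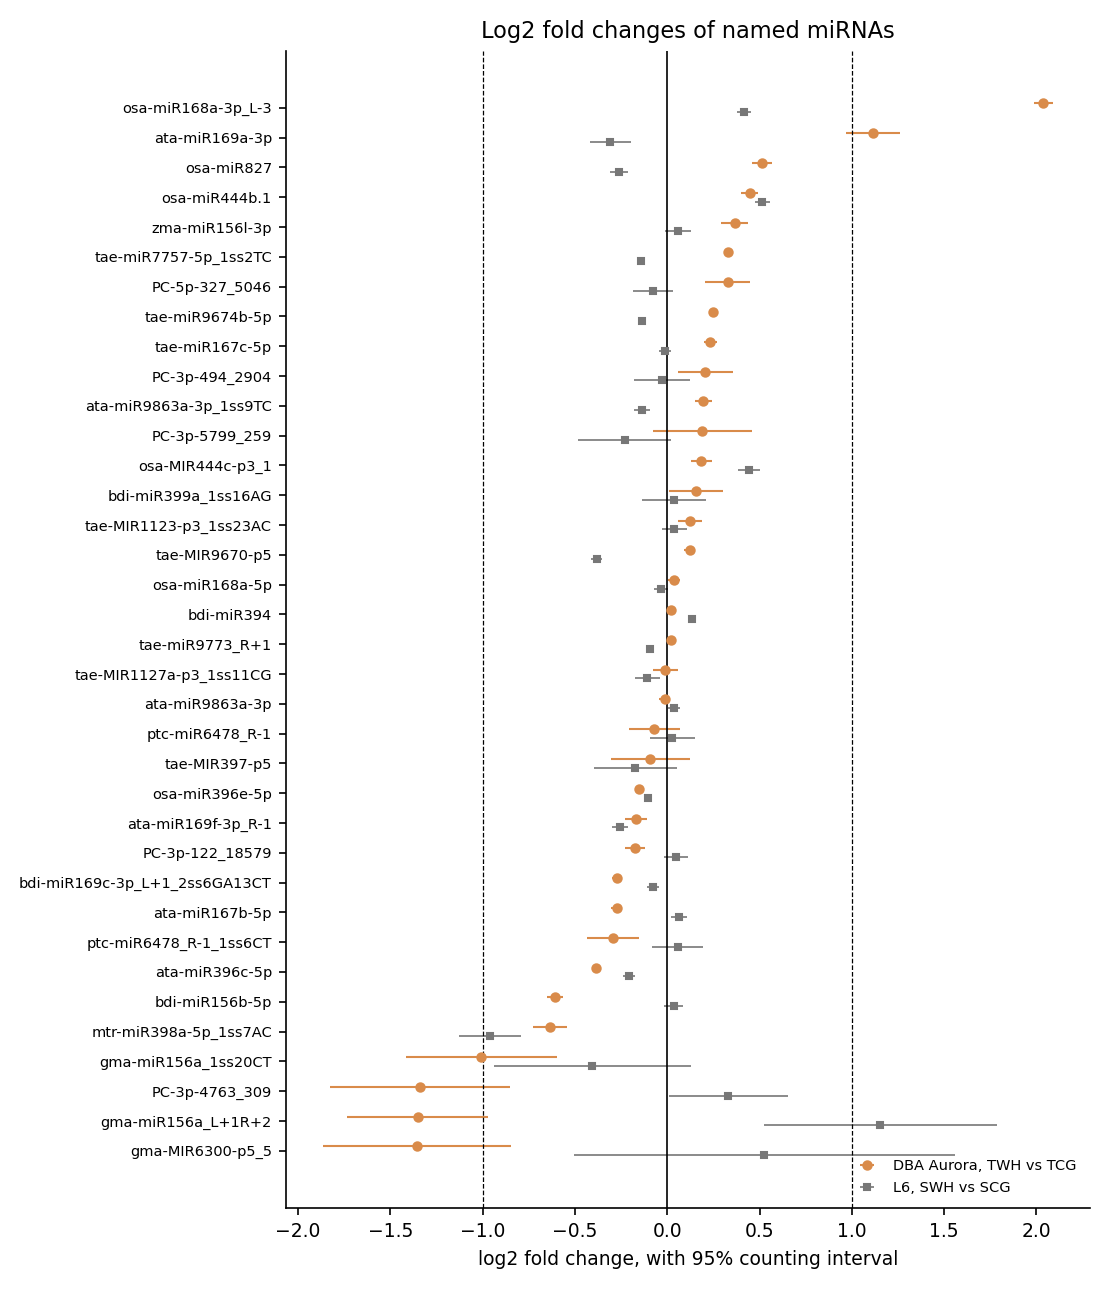
Log2 fold changes (x axis) of named miRNAs, in DBA Aurora (orange circles, TWH vs TCG) and L6 (grey squares, SWH vs SCG), with 95% counting intervals and dashed lines at the call limits of 1 and -1. osa-miR168a-3p_L-3 (2.04) and ata-miR169a-3p (1.11) lie past the upper limit, and 1 of 6 miR6300 sequences with the same reads is shown.

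Sequences with no miRBase match, mostly of unknown target, differed by length. Among those of 24 nt, the length of most plant small RNAs that act on repeats, 18 of 222 were called up and 5 down. All of these calls were among the 208 at counts of at least 10, a level at which 4.16% of all sequences were called up and 5.29% down, and the median log2 fold change was 0.25. At counts of at least 10, 139 of 208 were positive, which is 66.8% beside 47.4% over all sequences, while 105 of the 208 were positive in L6. They summed to 7825 in TCG, 8951 in TWH, 8503 in SCG and 8371 in SWH. TCG was thus the lowest library. Taken one by one, called or not, 81 of the 208 (38.9%) were lower in TCG than in each other library, beside 25.7% of all sequences at this level. PC-5p-24390_80 had 6.21 in TCG, 39.8 in TWH, 35.8 in SCG and 18.0 in SWH. Unmatched sequences of 21 nt had 7 of 200 members up and 4 down (5.5% beside 6.78% of all sequences) and a median of -0.03. PC-3p-4763_309 of this class was the only unmatched sequence called at a count of at least 100, with 115 in TCG, 45.4 in TWH, 137 in SCG and 173 in SWH, and TWH was the lowest library.
PC-5p-24390_80: gAGATTCCactatgaactacatac
PC-3p-4763_309: aACCAAAGctggcataccttc
The first of these is printed as the 24-nt sequence with the highest log2 fold change, 2.68, and the second for its count.

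Families with similarity to miniature transposons, in which 24 nt is also the most frequent length, had few members called up. Of 580 members of this list 5 were called up and 17 down, which is 3.79% beside 6.78% over all sequences. All of these calls were among the 303 at counts of at least 10, a level at which 4.16% of all sequences were called up and 5.29% down. No sequence below that level was called, so the many members with low counts weigh on the share of 3.79%. The median was -0.11, and 107 of 303 at counts of at least 10 were positive (35.3% beside 47.4% over all sequences). tae-MIR1123-p3_1ss23AC had 3675 in TCG and 4002 in TWH, and tae-MIR1127a-p3_1ss11CG had 3439 and 3415. Many members share reads: the 613 sequences of the list held 412 different sets of read numbers.

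Names with similarity to fragments of tRNA or rRNA were followed because such fragments increase when RNA breaks down. Of 116 members 5 were called up and 25 down, 25.9% of them beside 6.78% of all sequences, or 9.46% of those with a count of at least 10. The median was -0.13, or -0.41 at counts of at least 10. Of the 25 members called down, 19 were miR6300, and all 24 miR6300 sequences recorded had a negative log2 fold change. The 19 include sets of 6, 9 and 2 sequences with the same read numbers, so the share of 25.9% counts some reads several times. The 26 miR6300 sequences of the series held 12 different sets of read numbers. Their sequences overlap, and 3 are printed to show this.
gma-miR6300: gTCGTTGTagtatagtgg
gma-MIR6300-p5_5: gTTGTAGTatagtggtaagt
gma-MIR6300-p5_2: gTAGTATAgtggtaagtattccc
Of the 6 called miR6300 sequences above 100, each had 107 in TCG, 41.6 in TWH, 12.5 in SCG and 18.0 in SWH, the same read numbers, so they are 1 observation (log2 fold change -1.36, -1.87 to -0.85). The whole family summed to 1503 in TCG, 641 in TWH, 545 in SCG and 637 in SWH, so TCG was the highest library. The mature form gma-miR6300 differed from this order, with 50.7 in TCG, 16.1 in TWH, 48.3 in SCG and 53.9 in SWH, and TWH was lowest. Without miR6300 the list had 5 members up and 6 down, and their share of the remaining members was not computed. The 2 most abundant members, ptc-miR6478_R-1_1ss6CT and ptc-miR6478_R-1, had 880 and 841 in TCG and 718 and 801 in TWH. The list took 0.643% of the miRNA reads in TCG and 0.508% in TWH, and the part of RNA breakdown in the other differences was not tested.

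**Figure D4:**
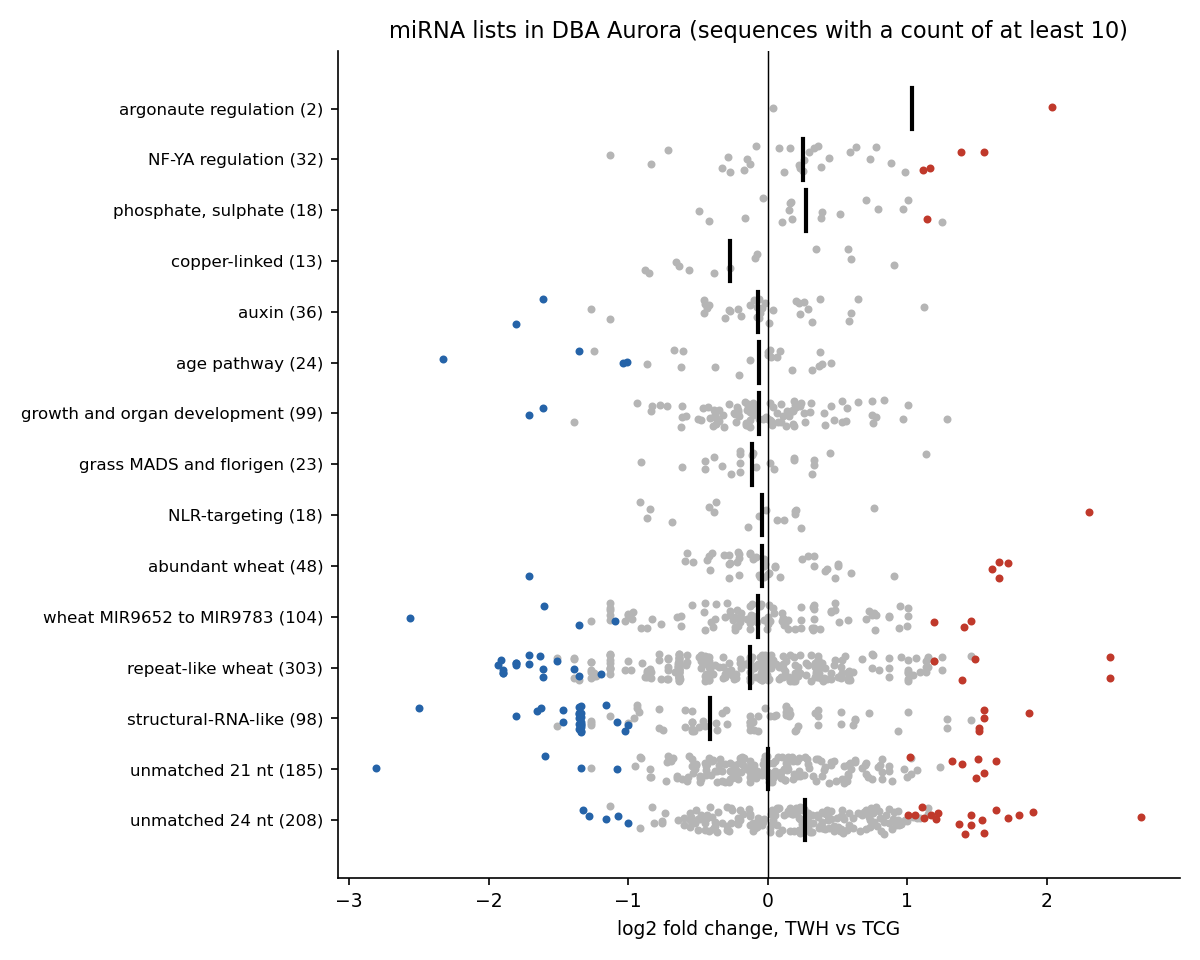
Log2 fold changes (x axis, TWH vs TCG) of sequences with a count of at least 10 in 15 lists, with the number of such sequences in brackets, called sequences in red (up) and blue (down), and the list median as a black bar. Unmatched 24-nt sequences lie to the right, with 18 called up, and structural-RNA-like sequences to the left, with 25 called down. Of the 25, 19 are miR6300, many with shared reads.

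Differences between the arms of 1 hairpin went beyond miR168. Of 124 pairs of sequences listed as arms of 1 hairpin, 2 shared a stretch of at least 12 bases and were left out as variants of 1 stretch. Of the 122 others, 59 went in the same direction and 63 apart, the interval of the change in arm ratio lay off 0 in 56, and the change was past a log2 of 1 in 14. In addition to miR168, the largest falls in the 5p to 3p ratio were at miR530, where tae-miR530, the 3p arm, had 5.18 in TCG and 22.7 in TWH and tae-MIR530-p5 had 698 and 712, and at tae-MIR9674a-p5_1ss20GT. At miR1847, tae-miR1847-5p had 670 in TCG, 360 in TWH, 356 in SCG and 417 in SWH, a log2 fold change of -0.90 (-1.08 to -0.71) that was not called, while tae-MIR1847-p3_2ss13TC21TC had 65.2 and 77.6. The largest rises were at miR9776, at a miR169 hairpin on chromosome 3B (zma-MIR169a-p5 and bdi-MIR169a-p3, another locus than that of ata-miR169a-3p), at miR5384 and at miR1117. ata-miR9776-3p_L+2R-1 had 27.9 in TCG and 4.73 in TWH, while tae-miR9776_L-1R+1_1ss18AG had 5996 and 6422. In tae-miR5384-3p_2ss9CT20TC and tae-MIR1117-p3 the fall of the less abundant arm was also called, and both calls were lost with a pseudocount of 10. One of the pairs left out, tae-MIR9781-p5_1ss8TC and tae-MIR9781-p3_1ss5TC, had 40.4 each in TCG and 50.2 and 13.3 in TWH.

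Sequences recorded in only 1 of TCG and TWH had low counts. There were 215 in TWH alone and 159 in TCG alone, with 10 called on each side. Next to ata-miR9863a-3p_1ss6AC, the most abundant in TWH alone were PC-3p-39112_54 with 18.0 and PC-3p-32870_63 with 17.0, both also present in both L6 libraries. In TCG alone they were PC-3p-12688_136 with 33.1, tae-miR1130b-3p_R+3_1ss6TC with 17.6 and gma-MIR5368-p5 with 16.6, and the last of these was recorded at 0 in L6 too. PC-3p-12688_136 was lower in TWH by a log2 fold change of at least 2.81, while in L6 it had 56.6 in SCG and 138 in SWH.

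By length, 21-nt sequences took 63.3% of the miRNA reads in TCG and 61.8% in TWH, and 22-nt sequences 21.2% and 23.0%. By first base, T took 64.8% in TCG and 60.9% in TWH, where both L6 libraries had 62.0% and 62.1%, and A took 23.2% and 26.6%. The 95% binomial intervals (Wilson) of these shares did not overlap, but they cover counting error only. The shares are of reads, so single abundant sequences weigh on them. tae-miR7757-5p_1ss2TC, of 22 nt with first base A, went from 98954 in TCG to 124237 in TWH. tae-miR9674b-5p, also with first base A, went from 76633 to 90855. The shares without these sequences were not computed. The share of 24-nt sequences was 4.07% and 4.08%.

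Across genotypes the called sequences of DBA Aurora were mostly not called in L6, where the same rule called 115 of 1967 sequences (5.85%) in SWH vs SCG, 62 up (3.15%) and 53 down (2.69%). Of the 59 called up, 1 was called up in L6 and 4 down. Of the 75 called down, 0 were called down in L6 and 13 up, 9 of them the miR6300 sequences with 1 set of read numbers. In L6 the median log2 fold change was -0.04 for the 59 and 0.33 for the 75. The interval of the difference in log2 fold change between genotypes lay off 0 for 36 of the 59 and 47 of the 75. These sequences were picked for a large log2 fold change in DBA Aurora, so such intervals follow largely from the call rule. The share of such intervals over all sequences was not counted. With 1 library a group the difference itself could not be tested. Whether a shift belongs to the seedlings of control parents or to the TCG pool cannot be told apart, nor can fewer cells of a type and less RNA per cell.

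**Figure D5:**
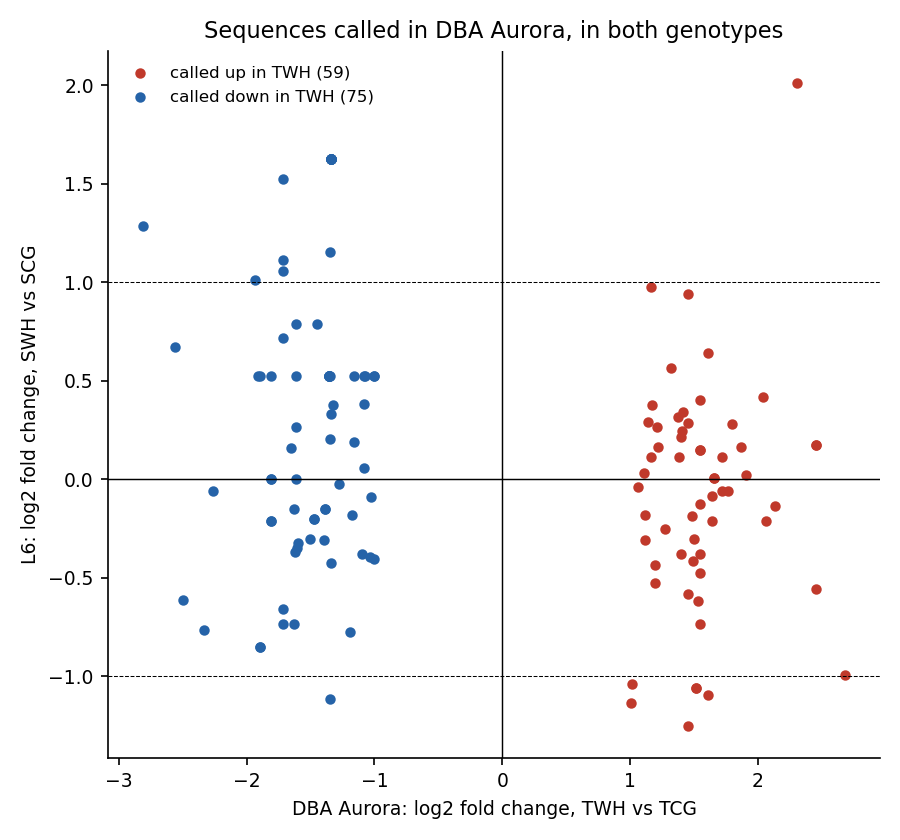
Log2 fold change in DBA Aurora (x axis, TWH vs TCG) and L6 (y axis, SWH vs SCG) of the sequences called in DBA Aurora, 59 up in red and 75 down in blue, with dashed lines at 1 and -1 for L6. In L6 1 of the 59 was called up and 0 of the 75 called down.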

How the data were processed

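Small RNA was sequenced as 50 bp single reads (TruSeq small RNA kit) from 4 pools of 8 seedlings. The authors used ACGT101-miR (version not given in the sources) to trim reads, keep 18 to 25 nt, drop those matching RFam, Repbase or durum mRNA, and assign miRNAs from miRBase 22.1, allowing 1 mismatch, and from the genome Svevo.v1. The deposited raw reads are estimated counts, since 59 to 67 sequences a library are not whole. The deposited normalised counts are a signal, the raw reads times 1 factor per library. Of the entries of the study, 28 were not analysed here.

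From these values 2174 entries were reduced to 2111 sequences. The 2 x 2 chi-squared and Fisher's exact tests set each sequence against the sum of all others, on normalised counts rounded for Fisher's test (scipy 1.17.1, Python 3.11.15). The 15 lists and the rule for named sequences were chosen with earlier results of these data known. The rule takes called sequences with a count of at least 100 (the 12 highest and 12 lowest), the 5 most abundant sequences, the 2 most abundant of each list, the 3 most abundant recorded in 1 library only on each side, the 5 hairpins with the largest change in arm ratio each way, and the 3 highest and lowest called unmatched sequences with a count of at least 50. Any further name was picked with its values in view. The alternatives were a p threshold of 0.01, adjusted p, no fold criterion, other treatments of 0, raw reads, minimum counts, TMM factors, clean-read scaling, an edgeR 4.0.16 exact test (R 4.3.3) and a pseudocount of 10. An alternative counting sequences with the same reads once, 1 leaving out miR6300, and 1 leaving out arm pairs that share a stretch of bases, were chosen after seeing the data. The call rule was also tested on simulated data with counting error only. Changes were set only in sequences with at least 100 reads in TCG and TWH together. The rule recovered nearly all changed sequences and also called some unchanged ones, all of them at low counts, where most of the calls made here lie. Without a spread between pools, the simulation cannot show how many calls would recur in other pools. Chromosome names follow the sequence order in Svevo.v1, and genes came from the RefSeq table of that assembly.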

Additional observations from a re-analysis of the deposited data

Results flagged for a closer look

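For 2 sequences the difference between TWH and TCG was called in the opposite direction to that between SWH and SCG, and at least 1 of the 4 libraries reached a count of 100. For gma-miR156a_L+1R+2 the log2 fold change was -1.35 in DBA Aurora and 1.15 in L6, a difference of -2.51 (-3.24 to -1.77, counting error only). For PC-3p-12688_136 it was at most -2.81 in DBA Aurora, where TWH was recorded at 0, and 1.28 in L6, a difference of at most -4.09. With 1 library a group neither difference was tested. At any count, 17 sequences were called in opposite directions and 1 in the same, and 9 of the 17 were miR6300 sequences with identical reads.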

How the results depend on the processing

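Of the alternatives, p under 0.01 called 31 sequences up and 49 down, Benjamini-Hochberg adjusted p under 0.05 called 26 and 46, no fold criterion 160 and 217, and letting a 0 meet the fold criterion 213 and 222, against 59 and 75. Every other setting stayed within 1.5 times: without sequences with a 0 (49 and 65), raw reads (62 and 74), a minimum of 10 (59 and 75), TMM factors (63 and 70), clean reads (59 and 75), the edgeR exact test with a common dispersion of 0.046 (63 and 80, of which 90 calls were shared), and same reads counted once (55 and 57, so that 49.1% of calls were up in place of 44.0%). At an adjusted p under 0.05 the exact test called 16 up and 10 down, which turns the balance, and 22 of these 26 were recorded in only 1 of TCG and TWH, with the 0 kept as 0. Among them osa-miR168a-3p_L-3 alone reached a count of 100. The dispersion came from the 4 libraries with genotype and parent treatment as terms, so it is not a spread between replicates. TMM factors moved all log2 fold changes by 0.04. With summed counts in place of medians, NF-YA regulation went from 0.16 to -0.10, grass MADS and florigen from -0.11 to 0.13 and abundant wheat from -0.06 to 0.20. The call of gma-miR156a_1ss20CT was lost with TMM factors (-0.96) and with a pseudocount of 10 (-0.91), as were those of tae-MIR1117-p3, tae-miR5384-3p_2ss9CT20TC and zma-MIR169a-p5 with the pseudocount. No paired analysis was possible because the labels give 1 library per group and no replicate numbers. Depth limits calls at low counts, and reads without molecular identifiers are not independent molecules.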
